A study of Mus musculus with 12 samples.

Results

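The 9 genes described here encode transcription factors that drive or accompany the formation of neurons: Neurog2, Eomes, Neurod1, Neurod2, Neurod6, Prox1, Insm1, Sox4 and Sox11. They were chosen by name, as known factors of the neurogenic lineage of the dentate gyrus. All 9 were found among the 50600 gene identifiers of the deposited counts table. These factors and the gene lists below were chosen with earlier results of these data known. Their shares beside those of all genes are therefore a description and no test. The data are limited-cell RNA-seq (lcRNA-seq) libraries of 50 sorted cells each from the mouse dentate gyrus, 4 for each of 3 cell types (astrocytes, progenitors, stem cells). All cells came from adult Nestin-GFP mice, 6 to 9 weeks old, in whose transgene regulatory sequence of the nestin gene drives green fluorescent protein. All were live cells negative for CD31, CD45, O1 and O4, which mark endothelial, hematopoietic and oligodendroglial cells. Stem cells were sorted as positive for both GFP and the surface protein GLAST, progenitors as positive for GFP but not GLAST, and astrocytes as positive for GLAST but not GFP.

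New granule neurons of the adult dentate gyrus arise from radial glia-like stem cells through dividing intermediate progenitors and neuroblasts. The proneural factor Neurog2 and the T-box factor Eomes act in the intermediate progenitors, the NeuroD factors follow in neuroblasts and young neurons, and Prox1 gives granule neurons their identity. Neurog2 and the NeuroD proteins are basic helix-loop-helix (bHLH) factors, which bind the E-box of DNA as dimers with E proteins. Insm1 is a zinc finger repressor that acts in the transition from stem cell to intermediate progenitor, and Sox4 and Sox11 are related high-mobility-group factors that activate genes of early neurons.

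To show the sequence before the start of the genes that passed a test below, the stretches upstream of the RefSeq start site of Neurod1, Prox1, Sox11 and Eomes are printed from GRCm38.p6, 5′ to 3′ on the strand of the gene. Capitals mark matches to the E-box CANNTG, which reads the same on both strands, and each stretch ends before the first annotated exon. The 4 stretches are chr2:79456786-79456886 on the reverse strand for Neurod1, chr1:190170828-190171077 on the reverse strand for Prox1, chr12:27342719-27342968 on the reverse strand for Sox11 and chr9:118477939-118478185 on the forward strand for Eomes.
Neurod1: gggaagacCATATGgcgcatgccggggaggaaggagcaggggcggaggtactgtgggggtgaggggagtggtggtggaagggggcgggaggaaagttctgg
Prox1: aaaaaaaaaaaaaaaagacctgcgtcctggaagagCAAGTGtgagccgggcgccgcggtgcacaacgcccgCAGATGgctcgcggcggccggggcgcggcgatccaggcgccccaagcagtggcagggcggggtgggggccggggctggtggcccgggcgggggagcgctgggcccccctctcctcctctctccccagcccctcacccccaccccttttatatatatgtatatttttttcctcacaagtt
Sox11: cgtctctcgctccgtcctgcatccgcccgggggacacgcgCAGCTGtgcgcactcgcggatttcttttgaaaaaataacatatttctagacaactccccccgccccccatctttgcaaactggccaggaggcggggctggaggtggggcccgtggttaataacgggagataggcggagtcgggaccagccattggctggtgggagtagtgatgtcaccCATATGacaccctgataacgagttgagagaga
Eomes: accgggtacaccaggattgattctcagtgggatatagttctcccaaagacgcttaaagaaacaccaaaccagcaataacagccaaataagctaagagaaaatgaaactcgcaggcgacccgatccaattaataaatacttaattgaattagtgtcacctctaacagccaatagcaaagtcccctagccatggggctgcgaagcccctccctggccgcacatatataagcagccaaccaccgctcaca

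RefSeq windows were present for 8 of the 9 genes. In the 250 bases before the start, 6 of these 8 held at least 1 E-box, and 66.2% of all 32851 such windows did. Neurod2 had the most matches with 3, among them CAGATG, and 12.2% of all windows held at least 3. The form CAGATG, or CATCTG on the other strand, which is also counted as an E-box, was found before Neurod2 and in the first of 2 windows of Prox1, compared with 14.4% of all windows. The form CAGCTG, likewise an E-box, was found before Sox4 and Sox11, compared with 13% of all windows. These shares describe the letters of the windows and say nothing about binding.

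Total counts on genes ranged from 5031166 to 12535028 per library. Depth differed by cell type, with 9041498 to 12535028 in progenitors, 5357232 to 6253680 in astrocytes and 5031166 to 10435711 in stem cells. Genes with a count numbered 19719 to 20222 in progenitors, 13987 to 15777 in astrocytes and 16280 to 17181 in stem cells. The paper calls the cDNA quality of the astrocytes suboptimal. How far this accounts for counts of 0 was not tested. Levels are CPM, that is read counts scaled to a common library size, with TMM, edgeR's normalization, applied to the library totals. A floor of 3 counts in a library corresponded to between 0.206 and 0.639 CPM. A cell type with at most 3 counts in every library is called undetected at this depth, and a fold over such a cell type is given as a minimum, which sets each of its libraries to 3 counts. This minimum covers counting error only, and not the loss of transcripts before sequencing. The 12 libraries are described by the study as biological replicates. The stem cell libraries carry the numbers 1 to 4, whereas those of the other cell types are unnumbered in the table and go by the letters a to d. Of the 12 genes in an astroglial list, 9 were lower in progenitors than in stem cells by the edgeR test, compared with 3.66% of all genes tested. The summed level of this list was between 9380 and 12300 CPM in progenitors and between 28400 and 38100 CPM in stem cells. Nes itself, the gene whose regulatory sequence drives the reporter, was counted at most 4 times in each stem cell library and 291, 1, 62 and 163 times in progenitors a to d. The paper expects Nes in both of these cell types. It reports that Nes failed its filter on read coverage, and regards a call of Nes as higher in progenitors as false.

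Progenitors held most of the transcripts of these factors. The summed level of the 9 genes was 988, 1270, 630 and 1020 CPM in progenitors a to d, compared with 25.9 to 66.8 CPM in stem cells and 42.9 to 419 CPM in astrocytes. Each progenitor library lay above every library of the other cell types. Sox11 made up 47.3% ± 4.76 (SD, n = 4) of the progenitor sum, Neurod1 20.9% ± 5.21 and Prox1 17.5% ± 3.29, while Neurog2 and Insm1 each made up less than 1%. In bulk libraries of 50 cells, fewer cells that express a gene and less RNA per cell cannot be told apart.

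**Figure D1:**
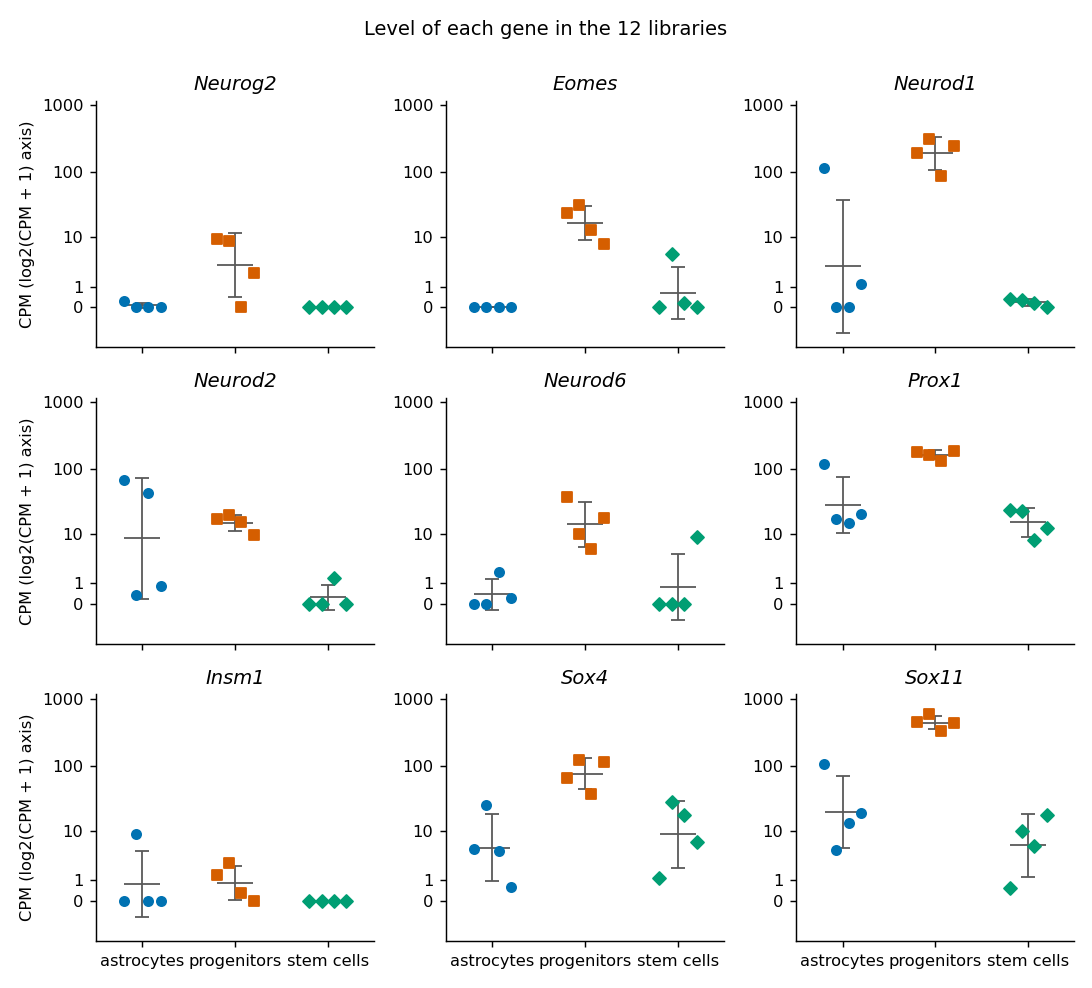
Level of each of the 9 genes in the 12 libraries, as CPM on an axis of log2(CPM + 1). Points are libraries (circles astrocytes, squares progenitors, diamonds stem cells), horizontal marks are means and bars are 1 SD on the log2 scale. Neurod1 was at or below 0.308 CPM in every stem cell library and at or above 86.9 CPM in every progenitor library.

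Compared with stem cells, 3 of the 7 factors that could be tested were called higher in progenitors by edgeR's quasi-likelihood test at an adjusted p below 0.05, and none was called lower. Of all 15427 genes tested, 4.95% were called higher in progenitors. The median log2 fold change of the 7 tested factors was 3.79, compared with 0.04 over all genes tested, and it was the same with Neurod1, which was undetected in stem cells, set to its minimum of 9.03. For 6 of the 9 factors, every progenitor library lay above every stem cell library, which held for 11.8% of all genes tested. These 6 were Eomes, Neurod1, Neurod2, Prox1, Sox4 and Sox11. Neurog2 and Insm1 did not reach 10 counts in 4 libraries, the filter of the test.

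Compared with astrocytes, 2 of 7 tested factors, Eomes and Sox11, were called higher in progenitors and none lower, and 6.18% of 14806 genes were called higher. The median log2 fold change of the 7 factors was 3.25, compared with -0.03 over all genes tested, and it was the same with Eomes, undetected in astrocytes, set to its minimum of 4.98. Fitted fold changes against libraries with few or no counts, also those given below for fits that left out a library, depend on the prior count of the fit and are no minimum. The libraries did not overlap for 5 of the 9 factors, Eomes, Neurod6, Prox1, Sox4 and Sox11, with the progenitors higher in each, and 15.2% of all genes tested had progenitor libraries that were all higher. Both comparisons use the same 4 progenitor libraries and are therefore not independent.

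Between astrocytes and stem cells, 0 of 3 tested factors passed the edgeR threshold, 0 of 3 had an unadjusted p below 0.05, and DESeq2 called 0 of the 2 for which it gave an adjusted p, with none given for Prox1. Of 12831 genes tested, 0.0468% were called in either direction. None of the 9 factors had libraries that were all higher or all lower, compared with 9.97% of genes tested. The log2 fold changes of astrocytes over stem cells were 1.35 ± 1.01 (SE) for Prox1, -0.58 ± 1.38 for Sox4 and 2.09 ± 1.33 for Sox11, with adjusted p from edgeR of 0.76, 0.944 and 0.708.

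**Figure D2:**
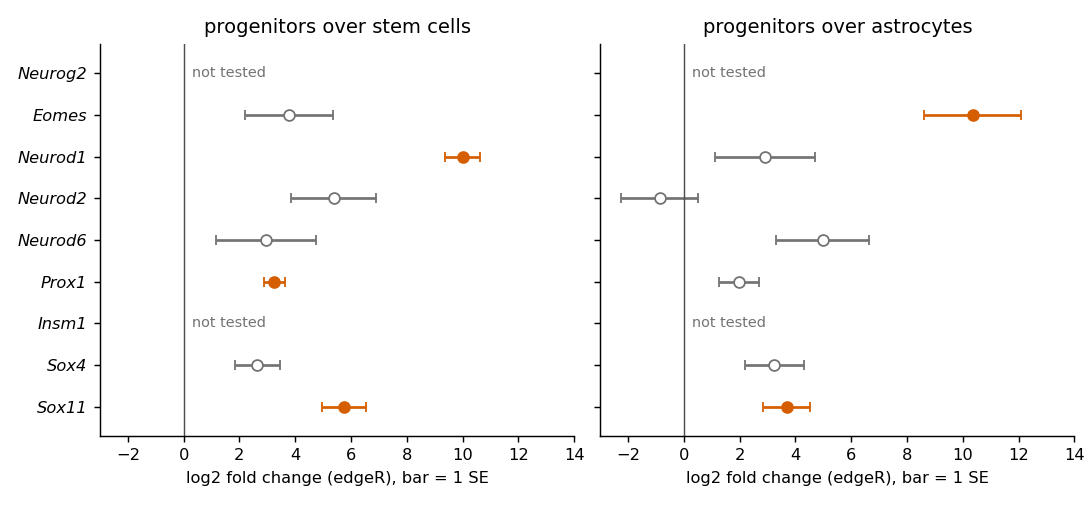
log2 fold change of progenitors over stem cells (left) and over astrocytes (right) for each factor, from edgeR, with bars of 1 SE. Filled points passed an adjusted p of 0.05, open points did not, and Neurog2 and Insm1 were not tested; Neurod2 over astrocytes is the only point below 0, at -0.87. The points of Neurod1 (left) and Eomes (right) are fitted against cell types without detected counts and depend on the prior count.

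Among the factors of intermediate progenitors, Eomes (also known as Tbr2; chr9:118478212-118486132, forward strand) was counted 346, 376, 140 and 89 times in progenitors a to d, or 23.7, 31.4, 12.9 and 7.65 CPM. No astrocyte library had a count. Among the stem cell libraries, stem cell 2 had 40 counts (5.21 CPM), stem cell 3 had 1 and the others none. By the floor of 3 counts, Eomes was thus at least 31.7-fold higher in progenitors than in astrocytes (adjusted p from edgeR = 0.016). For the same comparison the paper gives a smaller bound, which sets a failing gene to the expression cutoff of its coverage filter. Every progenitor library lay above stem cell 2. The difference from stem cells did not pass the test, with a log2 fold change of 3.79 ± 1.57 (SE) and an adjusted p from edgeR of 0.195. Without stem cell 2, the highest stem cell library, the log2 fold change was 8.38 and the adjusted p from edgeR 0.00648. Of the 8 fits that left out a library, only this 1 passed, and the largest adjusted p from edgeR was 0.372. The cause of the counts in stem cell 2 was not tested. An antisense gene, Gm33460, shares 2.84% of the exonic bases of Eomes.

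Neurog2 (chr3:127633135-127635631, forward strand), which acts upstream of Eomes and Neurod1 in cortical neurogenesis, was counted 137, 101, 0 and 25 times in progenitors a to d, or 9.40, 8.44, 0 and 2.15 CPM. It was seen in 3 of the 4 progenitor libraries and was not detected in progenitor c. The only other count was a single one in astrocyte a. The progenitor mean of 5.0 CPM was at least 12.2-fold above stem cells and at least 8.35-fold above astrocytes, but fewer than 4 libraries reached 10 counts, as the test required. In the 6 fits over stem cells with a looser filter or none, its adjusted p from edgeR was between 0.0364 and 0.112 and passed only without progenitor c, the library at 0, and none of the 6 such fits over astrocytes called it (adjusted p from edgeR between 0.0507 and 0.183). Insm1 (chr2:146221921-146225020, forward strand) gave 20, 32, 3 and 0 counts in progenitors a to d and none in stem cells. Its highest library was astrocyte b with 48 counts (8.77 CPM), whereas the other astrocyte libraries had none. Insm1 therefore did not separate progenitors from astrocytes. Its progenitor mean of 1.08 ± 1.22 CPM (SD, n = 4) was at least 2.65-fold above stem cells. This mean rested on progenitors a and b, since c and d did not exceed the floor of 3 counts. The fit without a count filter did not call the difference from stem cells (adjusted p from edgeR = 0.207).

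Neurog2 and Eomes were both highest in progenitors a and b. The same libraries had the highest counts of some genes of dividing cells. Mki67, a marker of proliferating cells, was counted 740 and 380 times in progenitors a and b and 1 and 8 times in c and d, and Top2a, the topoisomerase of mitosis, 724 and 1013 times in a and b and not in c or d. These genes, like the 2 replication genes given below, were chosen from the proliferation list after their values were seen. The whole list of 10 proliferation genes summed to 294 and 716 CPM in progenitors a and b and to 85.5 and 58.4 CPM in c and d. Not all of its genes followed this order. Mcm2, a part of the replicative helicase, at 15.0, 184.6, 29.8 and 15.1 CPM in progenitors a to d, and Pcna, the sliding clamp of replication, at 33.7, 162.1, 45.3 and 19.6 CPM, were highest in progenitor b and higher in c than in a. In stem cells it summed to 7.24 to 92.7 CPM, and Mki67 and Top2a were at 0 in all 4 libraries. A relation over 4 libraries was not tested.

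Neurod1 (chr2:79452521-79456751, reverse strand), which newborn granule neurons need for survival and maturation, had the largest difference from stem cells among the factors. It had 2895, 3811, 941 and 2918 counts in progenitors a to d, or 198.5, 318, 86.9 and 251 CPM. The 4 stem cell libraries had 3, 2, 1 and 0 counts. This was a difference of at least 524-fold, with an adjusted p from edgeR of 5.6e-05. In astrocytes a to d Neurod1 had 548, 0, 0 and 6 counts, so that a single library held nearly all of them. The progenitor level did not pass the test against astrocytes (log2 fold change 2.91 ± 1.79 SE, adjusted p from edgeR = 0.447), although each progenitor library but c was above astrocyte a at 117 CPM. Without astrocyte a the log2 fold change was 9.01 and the adjusted p from edgeR 0.00745. Of the 8 fits that left out a library, only this 1 passed. Cerkl, on the same strand, and Gm26755, on the opposite strand, share 13.01% of the exonic bases of Neurod1. Reads in these bases cannot be told apart in counts made without strand, and for Cerkl strand would not separate them.

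Neurod2 and Neurod6, bHLH factors of postmitotic excitatory neurons, were found at lower levels. Neurod2 (chr11:98325415-98329648, reverse strand) was at 17.1, 19.7, 15.2 and 9.63 CPM in progenitors a to d. Of the stem cell libraries, stem cell 3 had 11 counts (1.38 CPM) and the other 3 had none. The ranges did not overlap, and the test missed the threshold (log2 fold change 5.38 ± 1.51 SE, adjusted p from edgeR = 0.0577). Of the 8 fits that left out a library, 1 passed. This was the fit without stem cell 3, with an adjusted p from edgeR of 0.00735 and a log2 fold change of 10.30.

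In astrocytes a to d Neurod2 was at 69.2, 0.365, 43.5 and 0.817 CPM, so that astrocytes a and c lay above all progenitors and astrocytes b and d below. It was the only factor with a negative log2 fold change over astrocytes, -0.87 ± 1.37 (SE, adjusted p from edgeR = 0.817), and its sign turned to 0.01 without astrocyte a. Neurod6 (chr6:55677822-55681263, reverse strand) was at 38.1, 9.86, 5.64 and 17.9 CPM in progenitors a to d. It had no counts in stem cells 1 to 3 and 48 counts in stem cell 4 (8.92 CPM), which lay above progenitor c. Its log2 fold change was 2.96 ± 1.80 (SE) over stem cells (adjusted p from edgeR = 0.404) and 10.57 without stem cell 4 (adjusted p from edgeR = 0.0145). Over astrocytes, which had at most 1.98 CPM, it was 4.97 ± 1.67 (SE, adjusted p from edgeR = 0.113), and 7.80 without astrocyte c, the library with 1.98 CPM (adjusted p from edgeR = 0.0316). In both comparisons, only this 1 of the 8 fits that left out a library called Neurod6. DESeq2 called Neurod6 over astrocytes and Neurod2 over stem cells with all libraries (adjusted p from DESeq2 of 0.00223 and 0.000654), whereas edgeR on the full counts called neither. On counts thinned to equal depth, edgeR called Neurod2 over stem cells (adjusted p = 0.0476).

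Prox1 (chr1:190118035-190170714, reverse strand), the homeobox factor of granule neuron identity, varied least between progenitor libraries. Its levels were 180, 165, 132 and 184 CPM in progenitors a to d, a coefficient of variation (SD as a percentage of the mean) of 14.4%, compared with a median of 37.1% over all genes tested. Stem cells 1 to 4 had 23.9, 23.5, 7.88 and 12.3 CPM, so that Prox1 was detected in all of them at a lower level. The difference was called, with a log2 fold change of 3.26 ± 0.38 (SE) and an adjusted p from edgeR of 0.00112. Astrocytes a to d had 121, 17.4, 14.8 and 20.6 CPM. All progenitor libraries were higher, but the test was not passed (log2 fold change 1.96 ± 0.72 SE, adjusted p from edgeR = 0.151). Without astrocyte a the log2 fold change was 3.22 and the adjusted p from edgeR 0.0038. Of the 8 fits that left out a library, only this 1 passed. An antisense gene, Prox1os, shares 1.585% of the exonic bases of Prox1 and had 190 to 287 counts in progenitors.

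Sox11 (chr12:27334264-27342574, reverse strand) was the only factor called higher in progenitors against both other cell types. Its levels were 454, 593, 340 and 436 CPM in progenitors a to d, 0.513, 9.90, 5.38 and 17.8 CPM in stem cells 1 to 4 and 108, 4.75, 13.2 and 19.4 CPM in astrocytes a to d. All progenitor libraries were higher than every other library. The log2 fold change was 5.74 ± 0.79 (SE, adjusted p from edgeR = 0.00247) over stem cells and 3.68 ± 0.85 (SE, adjusted p from edgeR = 0.0227) over astrocytes. The call over astrocytes was lost in 6 of the 8 fits that left out a library (those without astrocyte c or d or any 1 progenitor), with an adjusted p from edgeR of at most 0.0609. Without astrocyte a the log2 fold change was 5.18 and the adjusted p from edgeR 0.0024.

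Sox4 (chr13:28948919-28953713, reverse strand), its close relative, was at 65.6, 122.5, 37.8 and 114 CPM in progenitors a to d. Stem cells 1 to 4 had 1.13, 28.0, 17.6 and 6.50 CPM, and astrocytes a to d had 4.90, 25.6, 4.54 and 0.613 CPM. Progenitors were higher than all other libraries, yet neither difference passed the edgeR test. The log2 fold change was 2.64 ± 0.80 (SE) over stem cells (adjusted p from edgeR = 0.0761) and 3.25 ± 1.07 (SE) over astrocytes (adjusted p from edgeR = 0.104). Without stem cell 2 the adjusted p from edgeR over stem cells was 0.047, and without astrocyte b that over astrocytes was 0.0321. In each comparison, only this 1 of the 8 fits that left out a library called Sox4. DESeq2 called both differences with all libraries, with adjusted p from DESeq2 of 0.00435 and 0.00688, and edgeR called the difference from stem cells on thinned counts (adjusted p = 0.0472) and with a filter of 10 counts in every library (adjusted p = 0.0245). The gene on the opposite strand, Gm26735, shares 54.56% of the exonic bases of Sox4 and had 202 to 509 counts in progenitors, compared with 409 to 1466 counts on Sox4, so that the Sox4 level is uncertain.

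Per exonic length, Neurod1 and Sox11 were the most abundant factors in progenitors, with 78.3 ± 35.8 and 54.8 ± 12.6 CPM per kb (SD, n = 4). Prox1 with 19.7 ± 2.85 and Sox4 with 17.7 ± 8.4 CPM per kb followed. Neurod6 had 8.31 ± 6.69, Neurod2 4.91 ± 1.36, Eomes 4.56 ± 2.57, Neurog2 2.24 ± 2.08 and Insm1 0.349 ± 0.392 CPM per kb. Of neighbours in this order, only Sox11 and Prox1 had ranges that did not overlap. In stem cells the first places were held by Sox4 (2.78 ± 2.5 CPM per kb) and Prox1 (2.01 ± 0.961 CPM per kb), whose ranges overlapped, and the mean of Neurod1 was only 0.0635 CPM per kb. In astrocytes all neighbours overlapped, with Neurod1 first at 10.8 ± 21.3 CPM per kb, of which astrocyte a had 42.8 CPM per kb.

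**Figure D3:**
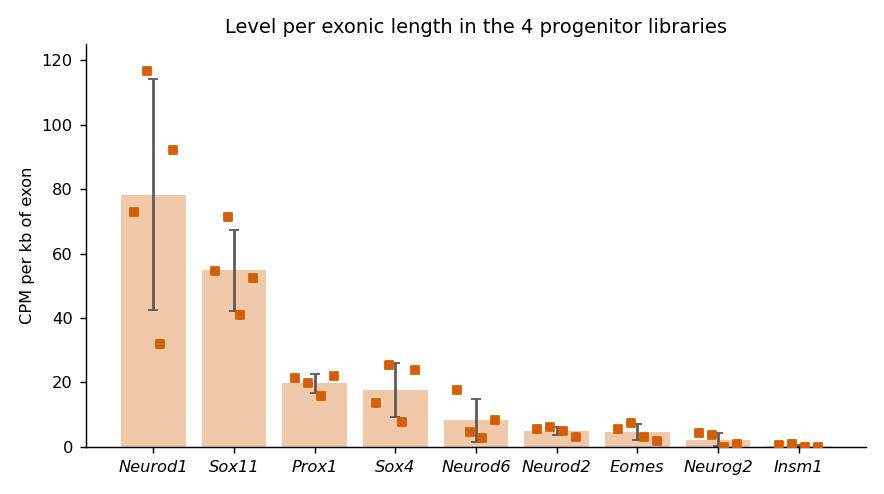
Level per kb of exonic length of each factor in the 4 progenitor libraries (points, a to d from left to right), with the mean (bar, from 0) and 1 SD. The Sox11 libraries, between 40.9 and 71.4 CPM per kb, lie above all Prox1 libraries, whereas all other neighbours overlap.

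The spread between progenitor libraries differed among the factors. The coefficient of variation was 22.9% for Sox11, 27.7% for Neurod2, 45.7% for Neurod1 and 47.4% for Sox4, and 56.4% for Eomes, 80.6% for Neurod6, 92.6% for Neurog2 and 113% for Insm1. Progenitor b was the highest library for 6 of the 9 factors (Eomes, Neurod1, Neurod2, Insm1, Sox4 and Sox11), and progenitor c the lowest for 6 (Neurog2, Neurod1, Neurod6, Prox1, Sox4 and Sox11). Progenitor c also had the highest sum of a list of 9 genes of oligodendrocyte precursors, which was 2410, 2210, 3610 and 3390 CPM in progenitors a to d.

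Markers of some other cell types differed between the groups. The oligodendrocyte precursor list summed to 74.9 to 168 CPM in stem cells and 166 to 348 CPM in astrocytes, all below the progenitors. In progenitors, 7 of its 9 genes were called higher than in stem cells and 5 of 9 higher than in astrocytes. The shares of all genes tested were 4.95% and 6.18%. Among the genes called over stem cells were Pdgfra, the growth factor receptor of these precursors, with mean levels of 581 CPM in progenitors and 1.53 CPM in stem cells (adjusted p from edgeR = 0.00094), and Cspg4 with 400 and 1.5 CPM (adjusted p from edgeR = 0.000267). Oligodendrocyte precursors are known to express Sox4 and Sox11 as well, and the part of these cells in the levels of the factors was not tested. A list of 6 mural cell genes summed to 2090, 39.5, 2150 and 923 CPM in progenitors a to d and to at most 192 CPM elsewhere. Of 5 mural genes tested against stem cells, 1 was called higher in progenitors, and of 4 tested against astrocytes 0. Progenitor b, with the lowest mural sum of the progenitors, had the highest sum of the 9 factors. The sums of 6 endothelial genes overlapped, at 1.0 to 75.6 CPM in progenitors, 0.751 to 95.0 CPM in stem cells and 0.613 to 73.6 CPM in astrocytes.

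In astrocytes, the mature neuron list of 10 genes summed to 5520, 1940, 1990 and 644 CPM in libraries a to d, compared with 178 to 258 CPM in progenitors and 246 to 503 CPM in stem cells. Astrocyte a, the highest for this list, was also the highest astrocyte for Neurod1, Neurod2, Prox1 and Sox11. Among astrocytes, Sox4 and Insm1 were instead highest in b (25.6 and 8.77 CPM) and Neurod6 in c (1.98 CPM), with 0 counts of Neurod6 in a. Camk2a, a kinase of excitatory neurons, was counted 19023 times in astrocyte a and between 2252 and 8065 times in the other astrocyte libraries. It made up most of each astrocyte sum, with 4052, 1473, 1498 and 460 CPM in astrocytes a to d. Of the 7 genes of the list tested, 3 were called lower in progenitors than in astrocytes and none higher, compared with 2.45% and 6.18% of all genes. Rbfox3 and Gad1 had higher means in progenitors (29.7 and 24.7 CPM) than in astrocytes (22.8 and 9.47 CPM). The list of 7 myelinating oligodendrocyte genes was also highest in astrocyte a, at 3200 CPM compared with 337 to 1370 CPM in astrocytes b to d. The part of such cells in the levels of the factors was not tested. Ptprc, which encodes CD45, had no count in any library. The list of 7 microglia genes that includes Ptprc was not at 0, however. It summed to 11.7 to 248 CPM in astrocytes, 25.8 to 69.1 CPM in stem cells and 5.76 to 17.2 CPM in progenitors.

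**Figure D4:**
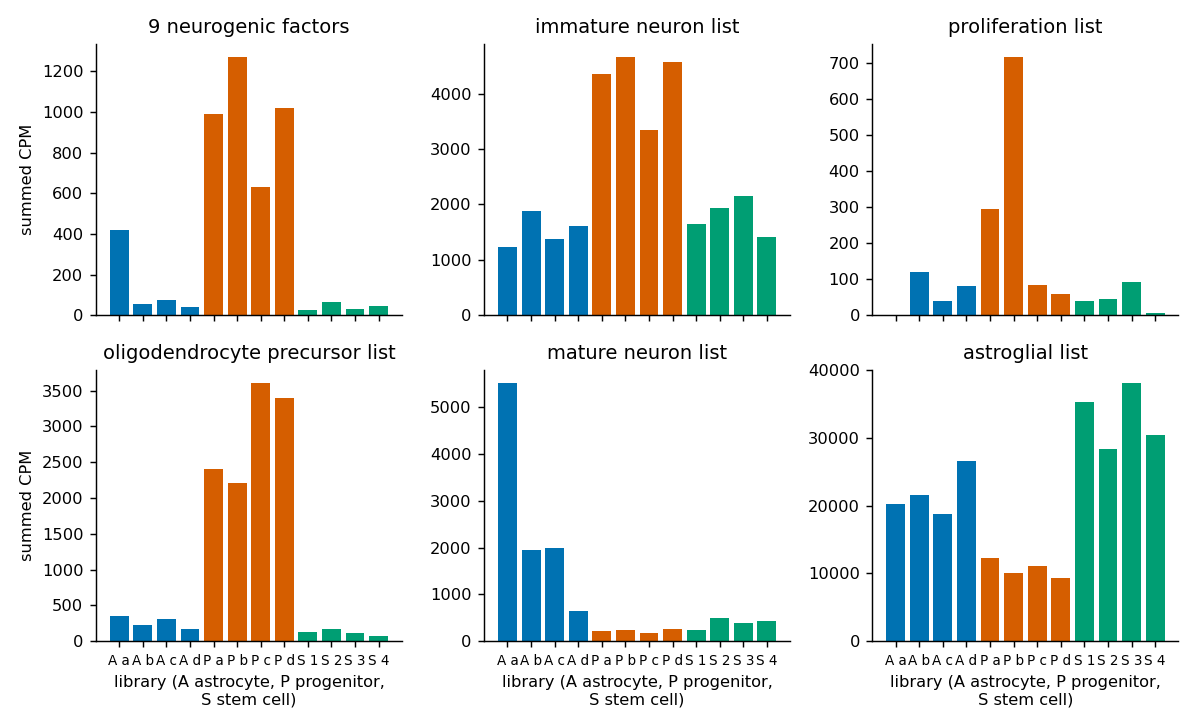
Summed CPM of the 9 factors and of 5 lists of marker genes in each library (A astrocytes, P progenitors, S stem cells), on linear axes from 0 that differ between panels. The factors and the oligodendrocyte precursor list were both highest in progenitors, the proliferation list was highest in progenitors a and b, and the mature neuron list was highest in astrocyte a at 5520 CPM.

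Of a list of 23 other transcription factor genes of neuronal lineages, 17 were tested against stem cells, 7 were called higher in progenitors and 1 lower, with a median log2 fold change of 2.34. Of all genes tested, 4.95% were called higher and 3.66% lower. Nhlh2, a bHLH factor of young neurons, had mean levels of 15.4 CPM in progenitors and 0.0326 CPM in stem cells (adjusted p from edgeR = 0.00268). Emx1, a homeobox factor of the dorsal telencephalon, had 14.1 and 0.0326 CPM (adjusted p from edgeR = 0.00297), and the repressor Scrt2 had 9.87 and 0.0464 CPM (adjusted p from edgeR = 0.00867). The gene called lower was Klf7, with a log2 fold change of -0.80 ± 0.21 (SE, adjusted p from edgeR = 0.0466). Against astrocytes, 4 of 17 tested genes were called higher and none lower, compared with 6.18% and 2.45% of all genes tested. Of the 4 called, Nhlh2, Scrt2 and Myt1 differed most. For Myt1, a zinc finger factor also found in the oligodendrocyte lineage, the mean levels were 70.3 CPM in progenitors and 0.989 CPM in astrocytes (adjusted p from edgeR = 0.0401).

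Few partners and antagonists of the bHLH factors passed the test. Of the 3 E protein genes, 1 was called higher in progenitors than in stem cells, where 4.95% of all genes were. This was Tcf4, higher by a log2 fold change of 0.58 ± 0.15 (SE, adjusted p from edgeR = 0.0391), and none was called against astrocytes. Of 11 genes for Id, Hes and Hey proteins and Rest, which block proneural factors or repress neuronal genes, 10 were tested against stem cells. Of these, 1 was called lower in progenitors, where 3.66% of all genes were, and none higher. This was Id4, whose product binds E proteins without binding DNA, with mean levels of 17.5 CPM in progenitors and 51.7 CPM in stem cells (log2 fold change -1.60 ± 0.40 SE, adjusted p from edgeR = 0.033). The log2 fold changes of the other 9 lay between -0.82 and 2.12. None of the 9 tested against astrocytes passed, with Id4 at -1.60 (adjusted p from edgeR = 0.257). The 8 genes of the LSD1 and CoREST corepressor complex, with which Insm1 acts, were all tested in both comparisons without a call, with median log2 fold changes of 0.11 over stem cells and -0.24 over astrocytes.

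Of 15 genes of immature granule neurons, which include targets of Sox4 and Sox11 such as Dcx and Tubb3, 9 were called higher in progenitors than in stem cells and 5 higher than in astrocytes, compared with 4.95% and 6.18% of all genes tested. None was called lower, and the median log2 fold changes were 3.76 and 2.69. Tubb3 passed against stem cells (adjusted p from edgeR = 0.0223) but not against astrocytes (adjusted p from edgeR = 0.188). Dcx, a microtubule-associated protein of migrating neuroblasts, was at 172, 271, 179 and 300 CPM in progenitors a to d, at 8.82, 0.391, 0.125 and 0.557 CPM in stem cells 1 to 4 and at most at 0.613 CPM in astrocytes. Its log2 fold change was 6.42 ± 1.05 (SE, adjusted p from edgeR = 0.00542) over stem cells. Igfbpl1 had a progenitor mean of 56.5 CPM and 1 count at most in any other library (adjusted p from edgeR = 0.000538 over stem cells and 0.011 over astrocytes). Dpysl5, a protein of growing axons, had mean levels of 44.2 CPM in progenitors and 0.0464 CPM in stem cells (adjusted p from edgeR = 0.000764).

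The patterns of the factors over the 12 libraries differed among themselves. Pearson's r of log2(CPM + 1) was highest for Neurod1 and Prox1, at 0.975, and was 0.934 for Neurod1 and Sox11. The lowest r among the 7 factors with enough counts was 0.284, for Neurod2 and Sox4. These values are a description, since the 12 libraries fall into 3 cell types that differ in the level of most factors. Among 16062 genes, the one most like Neurod1 was Gm26755 (r = 0.992), which overlaps the exons of Neurod1 on the opposite strand, followed by Zfp488 (r = 0.987) and Ica1 (r = 0.985). Neurod1 was itself the gene most like Prox1. The genes most like Eomes were Mex3b, Igsf9 and Slc2a3 (r = 0.975, 0.975 and 0.967), those most like Sox11 were Armh4, Gga2 and Igsf9b (r = 0.945, 0.944 and 0.943), and those most like Sox4 included Gdap1 and Dusp26 (r = 0.923 and 0.916). Neurod2 was most like Lingo1, Ptprk and Zfp661 (r = 0.96, 0.933 and 0.929), which like Neurod2 were found in astrocytes as well, with means between 10.7 and 93.9 CPM. Neurod6 was most like Mb21d2, 2610307P16Rik and Fstl4 (r = 0.962, 0.958 and 0.951). The mean of the standardized levels of these factors was most like Tmsb10, Asxl3 and Crmp1 (r = 0.981, 0.979 and 0.977).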

How the data were processed

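lcRNA-seq libraries of 50 FACS-sorted cells were preamplified with the SMARTer v4 kit, made with Nextera XT and sequenced on an Illumina HiSeq. The authors excluded reads from rRNA, mtDNA and PhiX, aligned the rest with HISAT2 2.0.6 to GRCm38.p4, and ran featureCounts on the GENCODE M14 annotation, without regard to strand. The treatment of reads that overlap 2 genes is not given in the sources used here. The deposited values are these raw counts, without normalization, and all 12 columns were used. Without molecular identifiers, floors cover counting error only, and p-values measure the spread between libraries.

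Symbols, coordinates and exonic lengths on GRCm38 were taken from GENCODE M21, in which 50376 of the 50600 identifiers had a symbol. Upstream sequences came from RefSeq on GRCm38.p6. Each pair of cell types was compared by the quasi-likelihood test of edgeR 4.0.16 (R 4.3.3, TMM factors, no robust estimation) on genes that reached 10 counts in 4 or more of its 8 libraries, adjusted by Benjamini-Hochberg over all tested genes, and genes below 0.05 were called. The SE of a log2 fold change was derived from it and the F statistic, as their ratio after taking the root of F. The alternatives were DESeq2 1.42.0, which the study used, its size factors in edgeR, no filter, a filter of 10 counts in every library, a single fit of all 12 libraries, thinned counts, and each library left out in turn (10 counts in 3 or more libraries). The edgeR and DESeq2 steps were run on simulated data, in which each gene had a mean above 0 in both cell types. A factor absent from a cell type was therefore not covered. Python 3.11.15 with pandas 2.3.3 was used for the other steps.

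The 9 factors and all gene lists were chosen with earlier results of these data known. Named genes besides the factors are, of each list, at most 3 called genes per direction and comparison with the largest log2 fold change, and the 3 genes most like each factor. Nes, Mki67, Top2a, Mcm2, Pcna, Ptprc, Tubb3, Rbfox3, Gad1 and, where they overlap a factor, Gm33460, Cerkl, Gm26755, Gm26735 and Prox1os are named in addition. For 1 gene among those most like Sox4 the result is not reported here. The CLEAR filter of the study works on per-base coverage and was not run. In the paper, Eomes, Neurod1 and Neurog2 failed this filter in each comparison of the cell types.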

Additional observations from a re-analysis of the deposited data

Results flagged for a closer look

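In 9 of the 24 groups of 4 libraries with any count of a factor, 1 library stood apart by Dixon's test. For normally distributed values chance flags about 1 group in 20, a rate that does not hold where libraries are at 0: in 4 of the 9 groups (Neurog2 and Insm1 in astrocytes, Neurod2 and Neurod6 in stem cells) the other 3 libraries had no count, so that any count would stand apart. Other groups were also near 0, such as Eomes in stem cells 1 to 4 with 0, 40, 1 and 0 counts. The share of such groups over all genes was not determined. In each of the 9 groups, the library that stood apart was the highest. Astrocyte a stood apart for Neurod1 (117 CPM, the next library 1.23 CPM), Prox1 (121 CPM, next 20.6 CPM), Sox11 (108 CPM, next 19.4 CPM) and, by a single count, Neurog2 (0.213 CPM). Astrocyte b stood apart for Insm1 (8.77 CPM) and astrocyte c for Neurod6 (1.98 CPM). Among stem cells, it was stem cell 2 for Eomes (5.21 CPM), stem cell 3 for Neurod2 (1.38 CPM) and stem cell 4 for Neurod6 (8.92 CPM). No progenitor library stood apart for any factor.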

How the results depend on the processing

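Neurod1, Prox1 and Sox11 were called higher in progenitors than in stem cells under each alternative in which they were tested and in all 8 fits that left out a library. Eomes over astrocytes was as well, but close to the threshold. Its adjusted p from edgeR was between 0.0199 and 0.0498 with a library left out. The number of factors called over stem cells was 5 with DESeq2 and 5 with thinned counts, which added Neurod2 and Sox4, 2 (Prox1 and Sox4) with at least 10 counts in every library, where only these could be tested, and between 3 and 5 with a library left out, 5 without stem cell 2. Over astrocytes it was 4 with DESeq2, which added Neurod6 and Sox4, 1 with at least 10 counts in every library, where 2 factors could be tested, and between 1 and 4 with a library left out, 4 without astrocyte a. Between astrocytes and stem cells it was 0 throughout. Leaving out the highest library of the lower cell type raises the fold change by construction. A pass in such a fit alone therefore does not establish a difference. The log2 fold change turned its sign for Neurod2 over astrocytes without astrocyte a, to 0.01 (from -1.278 to 0.01 with a library left out), and for Sox4 in astrocytes over stem cells without stem cell 2, to 0.077 (from -2.002 to 0.077), neither being called in any of these fits. The cause of these changes was not tested. Of 225 values of single factors under an alternative, 202 kept their direction and side of the threshold, 15 passed it only there, 6 no longer passed, all of Sox11 over astrocytes, and 2 turned. With Spearman's rho in place of Pearson's r, at most 1 of the 3 genes most like each factor stayed the same. No paired analysis was possible because the astrocyte and progenitor columns carry no replicate numbers. Without a count filter Neurog2 and Insm1 were tested in all 3 comparisons and not called. The filter of 10 counts in 4 libraries, and not the floor of 3 counts, kept them from the other tests of all libraries.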
